A study of Homo sapiens with 4 samples.

Results

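The OAS, IFIT and IFI44 genes are 3 families of antiviral effectors that cells switch on in response to interferon. They were taken as the 10 genes of the deposited count table named OAS1, OAS2, OAS3, OASL, IFIT1, IFIT2, IFIT3, IFIT5, IFI44 and IFI44L, out of 58735 genes in all. They were compared between 2 shSPTLC2 and 2 shCON RNA-seq libraries of Hey-A8, a human ovarian cancer cell line grown in RPMI-1640 with 10% fetal bovine serum. SPTLC2 encodes a subunit of serine palmitoyltransferase, which catalyses the committed step of sphingolipid synthesis. The labels conflict on what the cells carry. Titles, genotypes and the design text give a stable knockdown of SPTLC2 and a control hairpin, shCON. The treatment protocol instead gives GIPZ hairpin plasmids against ZDHHC15, or a scrambled hairpin, delivered transiently by lipofection, and cells harvested after 36 h. Grouping here was by title. No label mentions added interferon or a viral infection, names the hairpin sequence, or says how many hairpins or clones were used. Both groups carried a hairpin, so no library of unmodified cells enters the comparison. The labels do not say that libraries of a group came from separate cultures, so p-values measure only the spread between these libraries.

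Type I and type III interferons signal through JAK1 and TYK2 to the transcription factor complex ISGF3, which holds STAT2 and IRF9. ISGF3 binds interferon-stimulated response elements in the promoters of its target genes, and several of these can also be bound directly by IRF3. OAS1, OAS2 and OAS3 sense double-stranded RNA and make 2-5A, a second messenger that sets off RNA decay, whereas OASL lacks this enzymatic activity and enhances RIG-I signalling. IFIT proteins bind RNA ends that mark viral transcripts, and IFI44 and IFI44L are a pair of related interferon-induced proteins whose biochemical role is less settled.

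The 10 genes sit in compact clusters on hg38, in the coordinates of the count table. OAS1 (chr12:112906777-112933222), OAS3 (chr12:112938352-112973249) and OAS2 (chr12:112978395-113011723) lie head to tail on the plus strand, with gaps of 5130 and 5146 bases, and OASL (chr12:121019111-121039242) lies apart on the minus strand of the same chromosome. IFIT2 (chr10:89283694-89309276), IFIT3 (chr10:89327894-89340971), IFIT1 (chr10:89392546-89406486) and IFIT5 (chr10:89414586-89421001) follow each other on the plus strand, with gaps of 18618, 51575 and 8100 bases. IFI44L (chr1:78619922-78646145) and IFI44 (chr1:78649796-78664078) are plus-strand neighbours separated by 3651 bases.

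The promoters are shown for a short motif of the element that ISGF3 binds. The members were chosen as interferon-induced genes, so a high share with this motif follows at least in part from that choice. Its part in their fall was not tested. RefSeq promoter windows on GRCh38.p14, from 250 bases before to 50 bases after a start, were matched for 7 of the 10 genes, with 9 windows in all. OAS2, OASL and IFIT2 had no entry. The letters GAAANNGAA, from the core of an interferon-stimulated response element, were searched on both strands. They were found in 6 of the 7 genes and 88.9% of their windows, beside 9.86% of all 27305 genes and 8.11% of all 35116 windows of the same length. With a further A required after these letters, they were found in 6 of 7 genes, beside 4.38% of all genes and 3.57% of all windows. Stretches of 5 windows that contain no annotated exon are given here from the plus strand, 5′ to 3′, with the motif or its reverse complement TTCNNTTTC in capitals. They lie at chr10:89392473-89392545 (IFIT1), chr10:89327837-89327893 (IFIT3), chr1:78649709-78649788 (IFI44), chr1:78620258-78620349 (IFI44L) and chr12:112938304-112938351 (OAS3). The IFI44L stretch falls inside the span of that gene in the count table, and the other 4 lie upstream of their genes. The IFIT1 and IFIT3 stretches also lie in introns of LIPA, which runs along the opposite strand.
IFIT1: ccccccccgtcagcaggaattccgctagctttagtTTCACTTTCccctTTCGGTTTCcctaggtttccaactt
IFIT3: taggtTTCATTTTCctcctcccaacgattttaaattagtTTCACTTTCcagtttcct
IFI44: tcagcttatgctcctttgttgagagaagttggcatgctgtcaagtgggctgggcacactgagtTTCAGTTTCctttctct
IFI44L: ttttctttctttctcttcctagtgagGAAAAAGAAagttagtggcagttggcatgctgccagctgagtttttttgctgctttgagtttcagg
OAS3: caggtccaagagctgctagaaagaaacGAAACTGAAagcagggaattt

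IFIT1 has copies that begin at -115 and -102 bases from its start. IFIT3 has 2 copies in its first window and 3 in its second. IFIT5 has 3 copies, which begin at -44, -18 and -3. Of the bases before the IFIT5 start in its window, 151 are annotated exon of LIPA. IFI44 has 1 copy, which lies close to its first start, from -17 to -9. In IFI44L the 2 copies belong to a stretch of 85 bases that occurs a second time 91 bases downstream without a mismatch. Among the 7 genes, OAS1 is the member without the longer motif in its window. That window begins at chr12:112906712, whereas the gene's span given above begins at chr12:112906777. Of its bases before the RefSeq start, 185 are annotated exon of OAS1. Little sequence before the gene was therefore searched, and absence of the motif from the OAS1 promoter is not shown. The shorter letters AANNGAAA, which share all but their last base with the longer motif, were found in 7 of 7 genes, OAS1 included, beside 26.7% of all genes. The letters TTCNNNGAA, the core of the element through which interferon gamma acts, were found in 1 of 7 genes, OAS1, beside 9.38% of all genes. The OAS1 matches to AANNGAAA and to TTCNNNGAA all lie in its annotated exon. Of 66 other genes of the interferon system that had a window, 32 held the longer motif, 46 the shorter and 20 the letters TTCNNNGAA. These matches are letters in a window and show neither binding nor its absence.

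**Figure D1:**
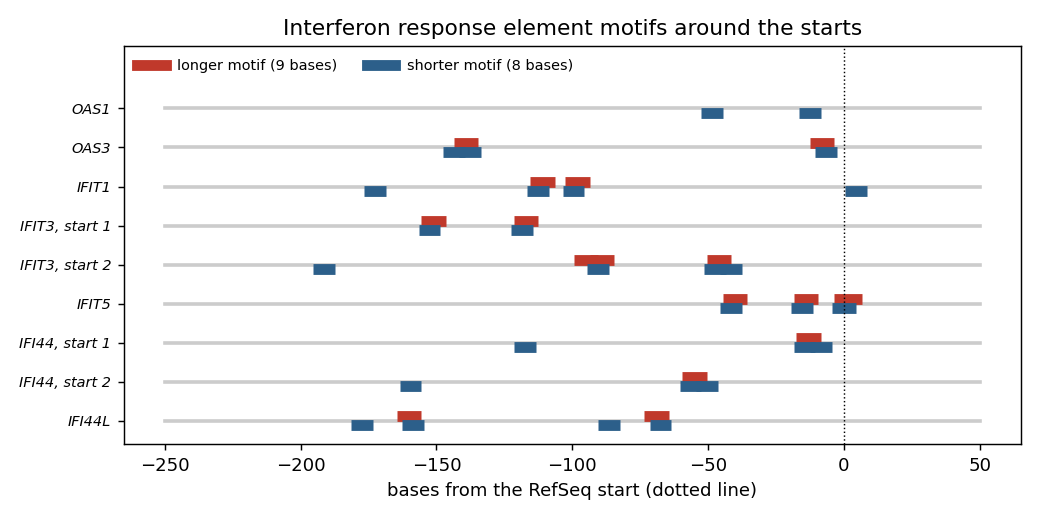
Positions of the longer motif (GAAANNGAA, red) and the shorter motif (AANNGAAA, blue) on either strand in the 9 RefSeq promoter windows of 7 genes, drawn in bases from the start (dotted line). The longer motif is present in 8 windows and absent from that of OAS1, where 185 bases before the start are annotated exon of OAS1.

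Total counts were 14464800 and 15085000 in the shSPTLC2 libraries and 14999600 and 15017600 in the shCON libraries, so a gene with 0 counts could have had up to 3, or 0.195 to 0.206 CPM (counts scaled to a library total of 1000000). SPTLC2 was at 39.9 and 43.1 CPM in shSPTLC2 cells and at 58.7 and 60.7 CPM in shCON cells, a log2 fold change of -0.52 ± 0.12 (edgeR adjusted p = 0.0063). That call was lost without shSPTLC2 replicate 1 (adjusted p = 0.13) or replicate 2 (adjusted p = 0.052). ZDHHC15 had 0 counts in all 4 libraries. Of 7 tested ovarian and epithelial markers 2 were called higher in shSPTLC2 cells and none lower, beside 10.4% and 9.00% of all tested genes. PAX8 was at 494.4 and 443.7 CPM in shSPTLC2 cells and at 272.9 and 294.3 CPM in shCON cells (log2 fold change 0.73 ± 0.11, edgeR adjusted p = 4.4e-04). MSLN was at 15.8 and 16.2 CPM in shSPTLC2 cells and at 11.0 and 9.95 CPM in shCON cells (0.61 ± 0.16, edgeR adjusted p = 0.016). Its call was lost when shSPTLC2 replicate 1 (adjusted p = 0.12) or replicate 2 (0.13) was left out. KRT8, at 1189 and 1225 CPM in shSPTLC2 cells and 1269 and 1258 CPM in shCON cells, was not called. Nor was VIM, at 4248 and 4070 CPM in shSPTLC2 cells and 5055 and 4432 CPM in shCON cells. The part of these markers in the results was not tested. CDH1 had 0 counts in each library, and EPCAM had 3 and 5 counts in shSPTLC2 cells and 10 and 9 counts in shCON cells. Of 7 leukocyte markers none passed the filter on low counts, CD3E and CLEC4C were at 0 in every library, and their summed level was 0.612 and 0.912 CPM in shSPTLC2 cells and 0.674 and 0.549 CPM in shCON cells. Mitochondrial transcripts took 10.1% and 8.56% of counts in shSPTLC2 libraries and 5.46% and 6.39% in shCON libraries. When the mitochondrial genes were left out before scaling, all 10 members remained called lower, with a median log2 fold change of -0.90.

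All 10 genes fell in shSPTLC2 cells. Each was called lower by edgeR's quasi-likelihood test at an adjusted p under 0.05, beside 9.00% of the 15313 tested genes called lower and 10.4% called higher. All 10 passed the filter on low counts, and the smallest count of any of them in a library was 35. Both shSPTLC2 libraries were below both shCON libraries for 10 of 10 genes, beside 30.2% of all tested genes. The members were chosen with earlier results of these data known, so these contrasts with all tested genes are not an independent test. The summed level of the 10 genes was 355.3 and 396.9 CPM in shSPTLC2 cells and 686.7 and 721.4 CPM in shCON cells. The median log2 fold change was -0.89 over the 10 genes and 0.005 over all tested genes. It was -1.04 over the 4 OAS genes, -0.79 over the 4 IFIT genes and -1.25 over IFI44 and IFI44L. In bulk RNA, fewer cells expressing a gene and less RNA of that gene per cell cannot be told apart.

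**Figure D2:**
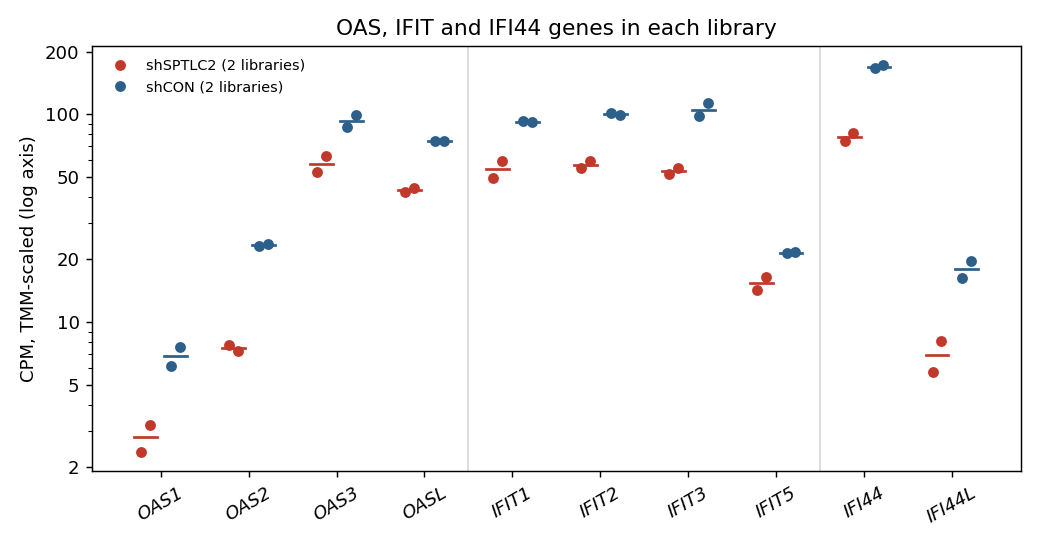
Level of each gene in each library, in CPM scaled by TMM on a log axis, with shSPTLC2 libraries in red and shCON libraries in blue; horizontal bars are group means of 2 libraries. The shSPTLC2 points lie below the shCON points for all 10 genes.

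**Figure D3:**
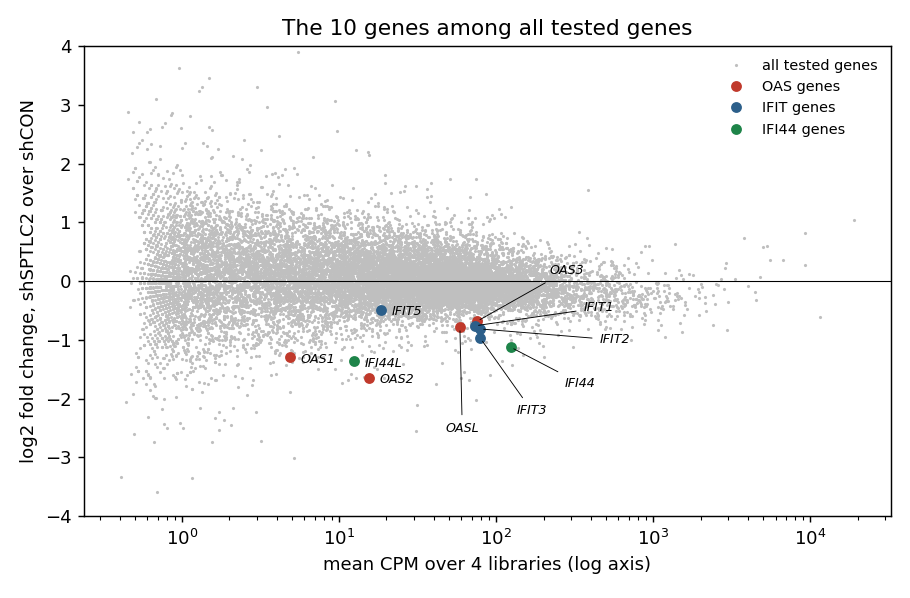
Log2 fold change of shSPTLC2 over shCON against mean CPM (log axis) for all tested genes (grey), with the 10 genes coloured by family; 6 genes beyond 4 on the log2 axis in either direction are not drawn. The 10 genes lie between -1.64 (OAS2) and -0.49 (IFIT5), at mean levels from 4.83 (OAS1) to 123.3 CPM (IFI44).

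Among the OAS genes, the estimated log2 fold change ran from -1.64 for OAS2 to -0.69 for OAS3, and differences among members were not tested. OAS2, the dimeric synthetase, had 114 and 111 counts in the shSPTLC2 libraries and 343 and 346 counts in the shCON libraries. These are 7.75 and 7.23 CPM in shSPTLC2 cells and 23.1 and 23.8 CPM in shCON cells. The libraries of a group almost coincided while the groups stood far apart. Its log2 fold change was -1.64 ± 0.16 (SE, edgeR adjusted p = 1.1e-05), a fall of 68.0%, and 66 of the 15313 tested genes had a lower value. OAS2 stayed called in each of the 12 alternative analyses, with adjusted p from 7.6e-19 to 0.0020.

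OAS1, the smallest of the synthetases, was also the scarcest of the 10 genes, with 35 and 49 counts in shSPTLC2 libraries and 91 and 111 counts in shCON libraries. In CPM it was at 2.38 and 3.19 in shSPTLC2 cells and at 6.14 and 7.62 in shCON cells. The groups did not overlap, but the libraries within each group differed more than for OAS2. The log2 fold change was -1.30 ± 0.26 (edgeR adjusted p = 0.0034). Without shSPTLC2 replicate 1 it was -1.10 and no longer called (adjusted p = 0.077). OAS3, the synthetase that prefers long double-stranded RNA, was at 52.6 and 62.9 CPM in shSPTLC2 cells and at 87.0 and 98.7 CPM in shCON cells. Its gap between groups was wider than the gap within either group. The log2 fold change was -0.69 ± 0.12 (edgeR adjusted p = 0.0016), and without shSPTLC2 replicate 1 it was -0.56 and no longer called (adjusted p = 0.078). OASL was at 42.1 and 44.1 CPM in shSPTLC2 cells and at 74.2 and 74.4 CPM in shCON cells. Libraries of a group were close to each other, and the log2 fold change was -0.79 ± 0.11 (edgeR adjusted p = 3.4e-04).

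Ratios of counts between the synthetases within a library do not depend on library scaling. The OAS2 count was 0.147 and 0.115 of the OAS3 count in shSPTLC2 libraries and 0.266 and 0.241 of it in shCON libraries. OAS1 was 0.0453 and 0.0508 of OAS3 in shSPTLC2 libraries and 0.0705 and 0.0772 in shCON libraries. Both ratios were lower in shSPTLC2 cells without overlap. The OASL to OAS3 ratio, at 0.801 and 0.702 in shSPTLC2 libraries and 0.853 and 0.754 in shCON libraries, overlapped between groups. The OAS1 ratio rests on 35 and 49 OAS1 counts in the shSPTLC2 libraries. None of the ratios given here or for the other families was tested, so unequal falls among the members are not shown. An exact two-sided permutation test of 2 libraries against 2 gives 0.333 at the least.

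IFIT1, IFIT2 and IFIT3, which act as a complex in human cells, had log2 fold changes from -0.98 to -0.76, and that of IFIT5 was the nearest to 0 of the 10. IFIT1, which recognises RNA caps that lack methylation, was at 49.4 and 59.3 CPM in shSPTLC2 cells and at 92.8 and 91.4 CPM in shCON cells. The shCON libraries nearly coincided, and shSPTLC2 replicate 1 was the lowest of the 4. The log2 fold change was -0.76 ± 0.12 (edgeR adjusted p = 6.2e-04). IFIT2, which binds AU-rich RNA, was at 55.1 and 59.4 CPM in shSPTLC2 cells and at 101.8 and 99.5 CPM in shCON cells. Its log2 fold change was -0.81 ± 0.11 (edgeR adjusted p = 2.1e-04), with libraries close together in both groups. IFIT3, which stabilises IFIT1, was at 51.8 and 55.3 CPM in shSPTLC2 cells and at 97.8 and 112.7 CPM in shCON cells. Its shCON libraries were the more spread, and the log2 fold change was -0.98 ± 0.12 (edgeR adjusted p = 7.6e-05).

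IFIT5, which works as a monomer and binds RNA with 5′ phosphates, was at 14.2 and 16.5 CPM in shSPTLC2 cells and at 21.5 and 21.7 CPM in shCON cells. The groups did not overlap, although the gap between them was narrower than for the other IFIT genes. The log2 fold change was -0.49 ± 0.15 (edgeR adjusted p = 0.029), a fall of 28.7%. It was the least secure call of the 10. Without shSPTLC2 replicate 1 the log2 fold change was -0.38 (adjusted p = 0.28), without shSPTLC2 replicate 2 it was -0.61 (adjusted p = 0.082), and DESeq2 gave -0.50 (adjusted p = 0.099). The IFIT5 to IFIT2 count ratio was 0.258 and 0.279 in shSPTLC2 libraries and 0.211 and 0.218 in shCON libraries, higher in shSPTLC2 cells without overlap. The IFIT1 to IFIT2 ratio was 0.896 and 0.999 in shSPTLC2 libraries and 0.912 and 0.919 in shCON libraries, so the groups overlapped. The IFIT3 to IFIT2 ratio was 0.940 and 0.931 in shSPTLC2 libraries and 0.961 and 1.13 in shCON libraries, lower in shSPTLC2 cells by less than the gap between the shCON libraries.

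IFI44 was the most abundant of the 10 genes, with 1092 and 1242 counts in shSPTLC2 libraries and 2463 and 2505 counts in shCON libraries. In CPM it was at 74.3 and 80.9 in shSPTLC2 cells and at 166.1 and 171.9 in shCON cells. The distance between groups was many times the distance within them. The log2 fold change was -1.12 ± 0.11 (edgeR adjusted p = 1.1e-05), and it stayed called in all 12 alternatives, with adjusted p from 2.7e-22 to 0.0049. IFI44L was at 5.78 and 8.14 CPM in shSPTLC2 cells and at 16.3 and 19.7 CPM in shCON cells. It was more spread within groups than IFI44, and the groups did not overlap. The log2 fold change was -1.37 ± 0.19 (edgeR adjusted p = 3.0e-04), a fall of 61.2%. The IFI44L to IFI44 count ratio was 0.0778 and 0.101 in shSPTLC2 libraries and 0.0983 and 0.115 in shCON libraries, so the pair's ratio overlapped between groups.

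**Figure D4:**
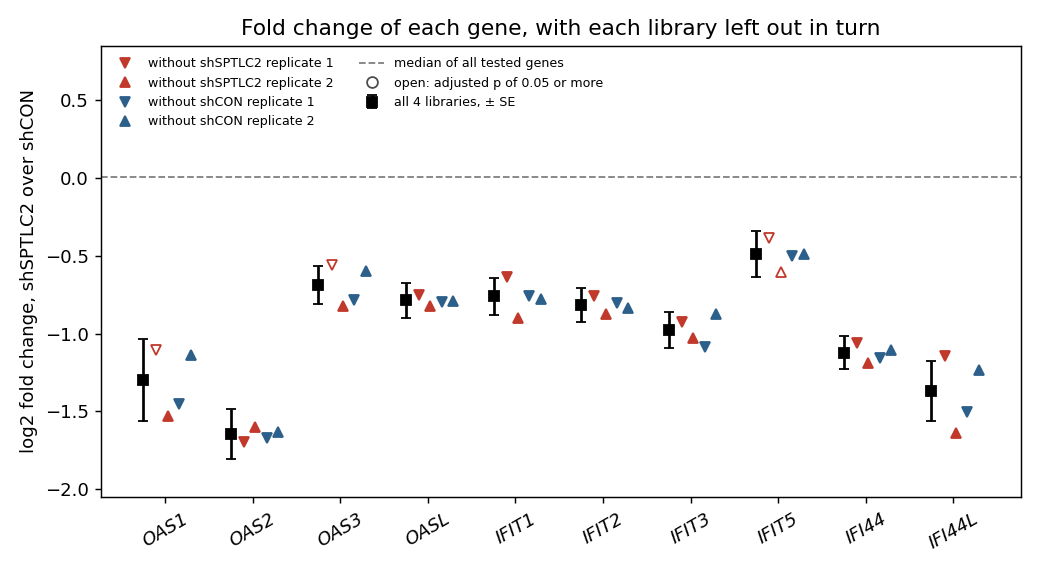
Log2 fold change of shSPTLC2 over shCON for each gene with all 4 libraries (black, ± SE) and with each library left out in turn (triangles, open where the adjusted p was 0.05 or more); the dashed line is the median of all tested genes. All values are below 0, and the open points are OAS1, OAS3 and IFIT5 without shSPTLC2 replicate 1 and IFIT5 without shSPTLC2 replicate 2.

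The 2 shSPTLC2 libraries did not weigh equally. A fit without either of them takes its spread between libraries from the shCON pair alone. Calls over all genes were also far fewer there, and why single calls were lost was not tested. Replicate 1 was below replicate 2 in shSPTLC2 cells for 9 of the 10 genes, with OAS2 the exception. The shCON replicate 1 was below shCON replicate 2 for 8 of the 10. Without shSPTLC2 replicate 1, 7 of the 10 genes were called lower, beside 1.41% of all genes tested in that fit. Without shSPTLC2 replicate 2, 9 were called, beside 2.49% of all genes. The members' median log2 fold change was -0.84 in the fit that left out shSPTLC2 replicate 1, and -0.96 in the fit that left out shSPTLC2 replicate 2. Leaving out either shCON library kept all 10 called, beside 12.6% (replicate 1) and 9.69% (replicate 2) of all genes. The other alternatives called all 10 lower, except DESeq2, which called 9. The share of all tested genes called lower was 7.37% in DESeq2, 8.95% in limma-voom, 9.25% with RLE size factors, 6.74% with library totals, 5.35% with no filter on low counts, 10.0% with the replicate block, 10.8% with GC-content offsets and 9.11% without mitochondrial genes. No alternative called a member higher. The share of all genes called higher was 7.13% in DESeq2, 10.4% in limma-voom, 10.2% with RLE size factors, 12.6% with library totals, 5.62% with no filter, 11.6% with the replicate block, 8.63% with GC-content offsets and 10.3% without mitochondrial genes. It was 2.56% and 3.68% without shSPTLC2 replicate 1 or 2, and 12.2% and 10.4% without shCON replicate 1 or 2.

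Compared per length, with the deposited FPKM (fragment counts scaled by gene length and by library), the 10 genes had the same order of levels in both groups. From high to low it was IFI44, IFIT3, IFIT2, OASL, IFIT1, OAS3, IFIT5, OAS2, IFI44L and OAS1. IFI44 averaged 37.7 ± 2.4 FPKM in shSPTLC2 cells and 82.7 ± 1.5 FPKM in shCON cells (SD, n = 2 each). OAS1, at the other end, averaged 0.558 ± 0.117 FPKM in shSPTLC2 cells and 1.39 ± 0.20 FPKM in shCON cells (SD, n = 2 each). In shSPTLC2 cells the libraries of neighbouring OASL and IFIT1 overlapped, as did those of IFI44L and OAS1. In shCON cells no neighbours in the order overlapped. The 3 synthetases therefore ran, per length, from OAS3 down through OAS2 to OAS1 in both groups, with OAS3 at 6.30 and 7.56 FPKM in shSPTLC2 cells and at 10.6 and 11.9 FPKM in shCON cells. OAS2 stood at 1.22 and 1.15 FPKM in shSPTLC2 cells and at 3.70 and 3.76 FPKM in shCON cells.

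Genes that share ground with the members did not all move with them. Of 21 coding genes within 250 kb of a member, members left out, 10 were tested, with a median log2 fold change of 0.04. Of those 10, 3 were called lower and none higher, beside 9.00% lower and 10.4% higher over all tested genes. DDX54, an RNA helicase gene near OAS2, was at 76.8 and 75.4 CPM in shSPTLC2 cells and at 121.5 and 113.9 CPM in shCON cells (log2 fold change -0.63 ± 0.11, edgeR adjusted p = 0.0011). Over the 12 alternative analyses the DDX54 value ran from -0.79 to -0.57. CAMKK2, a kinase gene near OASL, was called lower too (-0.36 ± 0.12, edgeR adjusted p = 0.039). CAMKK2 lost its call when shSPTLC2 replicate 1 (adjusted p = 0.36) or replicate 2 (0.12) was left out. LIPA, the lysosomal acid lipase gene, overlaps IFIT1, IFIT2 and IFIT3 on the opposite strand. It had 905 and 975 counts in shSPTLC2 libraries and 939 and 801 counts in shCON libraries, with a log2 fold change of 0.08 ± 0.12 (edgeR adjusted p = 0.67), and of -0.02 without shCON replicate 2. No source used here gives the strand setting of the counting, and where exons overlap LIPA reads cannot be told apart from IFIT reads. AC004551.1, an antisense gene that spans OAS1, OAS3 and OAS2, had 2 counts in all. AL353751.1, which lies within IFIT2, had 1 and 2 counts in shSPTLC2 libraries and 1 and 7 counts in shCON libraries. IFIT1B, a relative of IFIT1, had 0 counts in both shSPTLC2 libraries and 2 and 0 counts in shCON libraries.

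The rest of the interferon system was read from 80 other genes in 7 lists. Of these, 7 were at 0 in every library and 67 were tested. Of the tested genes 18 were called lower (26.9%), 7 were called higher (10.4%) and 42 were not called, with a median log2 fold change of -0.16, beside 9.00% lower and 10.4% higher over all tested genes. When either shSPTLC2 library was left out, fewer of these genes were called in each direction, and so were fewer of all tested genes.

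**Figure D5:**
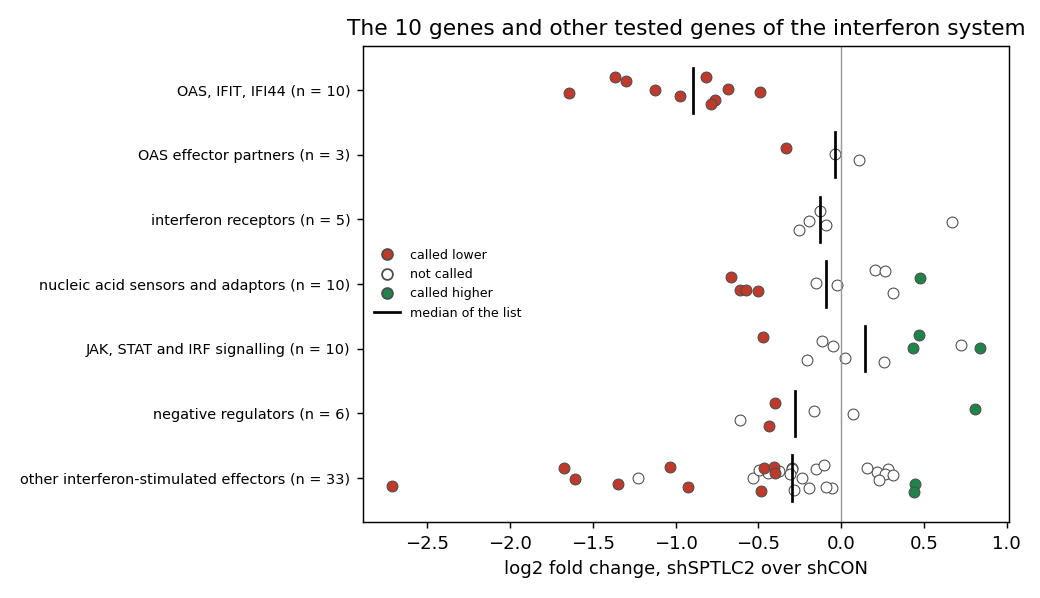
Log2 fold change of shSPTLC2 over shCON for each tested gene of the 10-gene set and of 6 other lists of the interferon system; red points were called lower, green points higher and open points neither, and vertical bars are list medians. All 10 OAS, IFIT and IFI44 genes are red, and they were chosen with earlier results of these data known. Every other list with tested genes holds open points. The lowest value drawn, -2.71, is that of MX2, among the other interferon-stimulated effectors.

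Downstream of the synthetases, PDE12, which degrades 2-5A, was at 50.6 and 48.4 CPM in shSPTLC2 cells and at 54.2 and 47.5 CPM in shCON cells, so the groups overlapped. It had a log2 fold change of -0.04 ± 0.12 (edgeR adjusted p = 0.85), with a sign that depended on scaling. ABCE1, which recycles ribosomes and restrains the 2-5A pathway, was at 129.3 and 136.3 CPM in shSPTLC2 cells and at 181.5 and 153.2 CPM in shCON cells. It was called lower (-0.33 ± 0.11, edgeR adjusted p = 0.047). That call was lost when shSPTLC2 replicate 1 (adjusted p = 0.34), shSPTLC2 replicate 2 (0.19) or shCON replicate 1 (-0.21, adjusted p = 0.15) was left out. ABCE1 was the 1 called gene of this list of 3, beside 9.00% called lower and 10.4% higher over all tested genes.

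Interferon transcripts themselves were close to absent. Of 9 interferon ligand genes, 6 had 0 counts in every library and none reached the filter. IFNB1 had 2 and 5 counts in shSPTLC2 libraries and 3 and 3 counts in shCON libraries. A difference in interferon transcripts was therefore not detectable at this depth. None of 5 tested receptor genes was called, beside 9.00% called lower and 10.4% higher over all tested genes. IFNAR1 had a log2 fold change of -0.13 ± 0.12 (edgeR adjusted p = 0.50), which became 0.02 without shCON replicate 1, and IFNGR1 had -0.20 ± 0.13 (edgeR adjusted p = 0.31).

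Among 10 tested sensors and adaptors of foreign nucleic acid, 4 were called lower and 1 higher, beside 9.00% and 10.4% of all tested genes. TMEM173, which encodes STING, was at 42.3 and 47.9 CPM in shSPTLC2 cells and at 71.3 and 63.2 CPM in shCON cells (-0.58 ± 0.12, edgeR adjusted p = 0.0044). DHX58, which encodes LGP2, had -0.66 ± 0.17 (edgeR adjusted p = 0.013) and DDX58, which encodes the RNA sensor RIG-I, had -0.50 ± 0.13 (edgeR adjusted p = 0.015). IFIH1, which encodes MDA5 and was named after its value was seen, had -0.61 ± 0.19 (edgeR adjusted p = 0.037). TICAM1, the adaptor of TLR3, was called higher (0.47 ± 0.14, edgeR adjusted p = 0.024). MAVS, the shared adaptor of RIG-I and MDA5, was at 155.6 and 163.5 CPM in shSPTLC2 cells and at 139.2 and 138.0 CPM in shCON cells and was not called (0.20 ± 0.10, edgeR adjusted p = 0.18). Without shSPTLC2 replicate 1 none of the 5 was called, with adjusted p of 0.13 for TMEM173, 0.21 for DHX58, 0.28 for DDX58, 0.40 for IFIH1 (log2 fold change -0.33) and 0.16 for TICAM1. IFIH1 had a log2 fold change of -0.97 without shSPTLC2 replicate 2. TICAM1 was also lost when shSPTLC2 replicate 2 (0.16) or shCON replicate 2 (0.31, adjusted p = 0.12) was left out.

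The signalling genes between receptor and promoter were called in both directions. Of 10 tested, 1 was called lower and 3 higher, with a median log2 fold change of 0.14. Over all tested genes, 9.00% were called lower and 10.4% higher. STAT2 and IRF9, which take part in ISGF3, were not called, with 0.26 ± 0.13 for STAT2 (edgeR adjusted p = 0.18) and 0.72 ± 0.35 for IRF9 (edgeR adjusted p = 0.16). IRF9 was named after its value was seen and rests on 38 and 38 counts in shSPTLC2 libraries and 24 and 21 counts in shCON libraries. STAT2 was called higher without shCON replicate 2 (0.43, adjusted p = 0.015) and had 0.10 without shCON replicate 1. IRF3, the factor activated downstream of RIG-I and STING, was at 60.9 and 61.3 CPM in shSPTLC2 cells and at 34.5 and 33.9 CPM in shCON cells, with no overlap. It was called higher (0.84 ± 0.12, edgeR adjusted p = 2.8e-04). TYK2 (0.43 ± 0.11, edgeR adjusted p = 0.013) and IRF2, a repressor of interferon-stimulated genes (0.47 ± 0.15, edgeR adjusted p = 0.036), were called higher too. JAK1 was not called (-0.12 ± 0.11, edgeR adjusted p = 0.47). With shSPTLC2 replicate 1 left out, TYK2 (adjusted p = 0.15) and IRF2 (0.14) were not called. Without shSPTLC2 replicate 2, TYK2 (0.11) and IRF2 (0.25) were not called, nor was IRF2 without shCON replicate 2 (0.13).

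Of 6 tested negative regulators, 2 were called lower and 1 higher, beside 9.00% and 10.4% of all tested genes. SOCS1, an inhibitor of JAK kinases, was called higher (0.81 ± 0.21, edgeR adjusted p = 0.015). SOCS3 (-0.40 ± 0.12, edgeR adjusted p = 0.025) and the phosphatase gene PTPN2 (-0.44 ± 0.13, edgeR adjusted p = 0.029) were called lower, and PIAS1 was not called (0.07 ± 0.12, edgeR adjusted p = 0.72). None of these 3 calls held without shSPTLC2 replicate 1, where the adjusted p was 0.16 for SOCS1, 0.24 for SOCS3 and 0.20 for PTPN2. Without shSPTLC2 replicate 2 it was 0.065 for SOCS1, 0.14 for SOCS3 and 0.17 for PTPN2. Without shCON replicate 2, SOCS3 (0.053) and PTPN2 (0.0997) were not called.

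Among 33 tested other interferon-stimulated effectors, 10 were called lower, 2 higher and 21 were not called, with a median log2 fold change of -0.30. These are 30.3% lower and 6.06% higher, beside 9.00% and 10.4% of all tested genes. MX2, a dynamin-like restriction factor, had 18 and 7 counts in shSPTLC2 libraries and 86 and 76 counts in shCON libraries (-2.71 ± 0.38, edgeR adjusted p = 2.6e-04). Its relative MX1 was at 2.99 and 5.08 CPM in shSPTLC2 cells and at 11.4 and 9.20 CPM in shCON cells (-1.35 ± 0.25, edgeR adjusted p = 0.0022), a call that leaving out shSPTLC2 replicate 1 ended (adjusted p = 0.062). IFI6, an interferon-induced mitochondrial and endoplasmic reticulum protein gene, had -1.03 ± 0.15 (edgeR adjusted p = 4.0e-04), and the ubiquitin ligase gene HERC6 had -0.93 ± 0.13 (edgeR adjusted p = 3.0e-04). The other 6 called lower had log2 fold changes from -1.68 to -0.40. They include IFITM1, with 4 and 12 counts in shSPTLC2 libraries and 24 and 24 counts in shCON libraries (-1.61 ± 0.52, edgeR adjusted p = 0.040). IFITM1 was named after its value was seen, and its span in the count table lies inside that of its relative IFITM2. The 2 called higher were IFITM2 (0.45 ± 0.11, edgeR adjusted p = 0.0099) and IFITM3 (0.44 ± 0.11, edgeR adjusted p = 0.013), which block virus entry. These were named after their values were seen, and their near-identical sequences make the split of reads between them uncertain. Neither call held when shSPTLC2 replicate 1 (adjusted p = 0.15 for each) or shSPTLC2 replicate 2 (0.084 for IFITM2, 0.12 for IFITM3) was left out. ADAR, the RNA editor, was not called (-0.30 ± 0.11, edgeR adjusted p = 0.062) but was without shCON replicate 1 (-0.36, adjusted p = 0.0053). LGALS3BP, the most abundant of the list by CPM, was not called (0.16 ± 0.11, edgeR adjusted p = 0.35).

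The coding genes outside the set with the profile closest to the members' mean over the 4 libraries were RASSF5, ERRFI1, SQSTM1, SENP8 and PARD3B. Closeness was the root mean square difference of centred log2 CPM, which was 0.0366 for RASSF5 and 0.0541 for PARD3B, and ran from 0.0513 (IFIT3) to 0.336 (OAS2) for the members themselves. The 4 libraries give few points, and such a profile is close to a plain difference between groups. A fall like that of the members therefore follows from how these genes were picked, and their adjusted p-values are no independent test. SQSTM1, which encodes the autophagy receptor p62, was at 468.2 and 495.7 CPM in shSPTLC2 cells and at 952.4 and 983.4 CPM in shCON cells (-1.01 ± 0.11, edgeR adjusted p = 3.7e-05). ERRFI1, an inhibitor of the EGF receptor, was at 77.0 and 87.6 CPM in shSPTLC2 cells and at 165.2 and 165.2 CPM in shCON cells (-1.004 ± 0.109, edgeR adjusted p = 3.7e-05). RASSF5, SENP8 and PARD3B were scarcer and fell by 1.08, 1.09 and 1.03 on the log2 scale. Leaving out shSPTLC2 replicate 1 ended all 3 calls (adjusted p = 0.12 for RASSF5, 0.16 for SENP8 and 0.069 for PARD3B), and SENP8 was also lost when shSPTLC2 replicate 2 (0.098) or shCON replicate 2 (0.057) was left out.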

How the data were processed

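Total RNA of the 2 shSPTLC2 and 2 shCON samples was made into libraries by NEBNext Ultra RNA, as the labels' protocols state. The deposited count table holds raw counts per gene. The deposited FPKM equal each count divided by gene length and a library factor, checked to a relative deviation of 5.1e-15. Per the submitters' processing notes, HISAT2, StringTie, SAMtools and hg38 were used; how reads were counted, and whether by strand, is not given in the sources used here. Table and GENCODE 29 shared ID, symbol, start, end and strand for 58724 of 58735 genes. There were 0 unused columns of per-sample values.

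Counts were tested in R 4.3.3 with edgeR 4.0.16 (filterByExpr with a minimum count of 10 and total of 15, TMM, robust quasi-likelihood F test, two-sided, no covariates). P-values were adjusted by Benjamini-Hochberg over the 15313 tested genes, with calls at an adjusted p under 0.05. The SE is the size of the log2 fold change divided by the root of F. CPM use TMM-scaled totals. Alternatives were DESeq2 1.42.0, voom in limma 3.58.1, other scalings, no filter, a replicate block and each library left out. GC-content offsets and omission of mitochondrial genes were added after the data were seen.

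The members and lists were chosen with earlier results of these data known. Named genes were the members, SPTLC2 and ZDHHC15, and the OAS effector partners. From each other list the 4 called genes of smallest adjusted p (fewer where fewer were called) and the 2 of highest mean CPM were named, with called coding neighbours and the 5 closest profiles. Other marker, overlapping and small-count genes were named after their values were seen. A few of the genes so chosen are not reported here.

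Intervals and floors cover counting error only. Exact 95% binomial intervals of the mitochondrial shares were within 0.02 percentage points of the value. The common biological coefficient of variation was 10.1%. Between libraries of a group 26.9% (shSPTLC2) and 34.4% (shCON) of genes with at least 10 counts differed (chi-square test, p under 0.05), more than sampling noise gives. Data were simulated for this comparison over 15313 genes, with 67, 67 and 66 genes changed by 1.5-fold, 2-fold and 4-fold. The share of these planted changes that edgeR found was 35.8%, 74.6% and 95.5%, in that order. Of 160 calls 23 were false, a larger share than the threshold of 0.05 aims at. Far fewer genes were changed than were called in the data, so the shares found may not carry over.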

Additional observations from a re-analysis of the deposited data

How the results depend on the processing

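The direction of all 10 members held under the 12 alternatives. Of the calls counted gene by gene in each alternative 115 were kept. The 5 lost are OAS1, OAS3 and IFIT5 without shSPTLC2 replicate 1, IFIT5 without shSPTLC2 replicate 2 and IFIT5 in DESeq2. The number of members called lower was 9 in DESeq2, ran from 7 to 10 with 1 library left out and was 10 otherwise; none was called higher in any of them. With the replicate block, 10 members were called lower and no call reported here changed. The numbers do not pair the libraries, since there are 2 per group and the correlation of same-numbered deviations was -0.013. Of the other interferon genes, 4 to 18 were called lower and 1 to 9 higher with 1 library left out. DESeq2 called 11 lower and 4 higher, and GC-content offsets called 4 higher. Among named genes outside the 10, GC-content offsets ended the calls of TICAM1 (0.26, adjusted p = 0.19), TYK2 (0.26, adjusted p = 0.10), SOCS1 (0.47, adjusted p = 0.12) and MSLN (0.34, adjusted p = 0.15). DESeq2 ended those of ABCE1, IFIH1, TICAM1, IRF2, SOCS1, PTPN2, SENP8, CAMKK2 and MSLN, and library totals those of ABCE1, IFIH1, SOCS3, PTPN2 and CAMKK2. Values near 0 changed sign in 5 instances. PDE12 had a log2 fold change of 0.015 with library totals and ran from -0.14 to 0.051 with 1 library left out. IFNAR1 ran from -0.28 to 0.024 and LIPA from -0.024 to 0.18 with 1 library left out, and LGALS3BP had -0.00093 with GC-content offsets. The causes were not tested. With 2 libraries per group, changes of 1.5-fold were often missed in data simulated with few changed genes. OAS1, with 35 to 111 counts, is the member that counting error limits most.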
